A study of Mus musculus with 6 samples.

Results

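Glutathione transferases join the tripeptide glutathione to electrophilic compounds such as drugs, plant toxins and the aldehydes that form when lipids are oxidised, which makes them water-soluble and ready for export from the cell. The soluble enzymes fall into classes named by Greek letters (alpha, mu, pi, theta, omega), and a separate membrane-bound family, the MAPEG proteins, holds the microsomal transferases. Several of these genes are known targets of Nrf2, the transcription factor of the antioxidant response. Described here are 10 of these genes, Gsta3, Gsta4, Gstm1, Gstm2, Gstm5, Gstp1, Gstt1, Gsto1, Mgst1 and Mgst3, out of 18193 genes measured. The genes were chosen by symbol, among probe sets that the platform annotation assigns to a single gene, and each is represented by its brightest probe set, taken by the mean log2 signal of all 6 arrays. The choice of this family was made with the differences between the groups already known, so those differences are given as a description, with an interval from the fit and no p-value for a single member. Counts of members past the threshold stand beside the share of all genes, and nothing is supported with them.

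The study set 3 arrays of wild-type mouse embryonic fibroblasts, MEF-WT, against 3 arrays of fibroblasts labelled as a knockout of abl and arg, MEF-DKO. These 2 genes, Abl1 and Abl2, encode the Abl tyrosine kinases. Both groups carry the labels of the C57BL/6 strain and of embryos at 14 days of gestation with both sexes pooled, and the labels name no treatment. The labels do not say how many embryos or cultures lie behind the 3 arrays of a group, or whether the cells are a single clone, so an error or p-value here measures the spread between arrays, which may be technical. Signals are linear intensities with a median over all probe sets of 13.96, and differences are on the scale log2(signal + 16), where a change from a signal near the floor is understated. Abl1 had signals of 182, 183 and 189.9 in the wild-type arrays and 178, 171 and 161 in those labelled knockout, and Abl2 had 245, 262 and 261 against 267, 253 and 243. The Abl2 values of the groups overlapped and those of Abl1 did not. The difference of Abl1 was small (-0.11, 95% interval -0.23 to 0.01), so directions below are those of the arrays labelled knockout. Whether these probes lie in the deleted parts was not analysed here.

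Of 12 fibroblast markers, 7 were higher and 2 lower in the arrays labelled knockout, and 3 did not pass. At an adjusted p under 0.05 this was 75% called, against 59.7% of all genes tested (24.2% higher and 35.5% lower). Vim, Fn1 and Col1a1 were bright in both groups, and Thy1 and Fap were near the floor in both. The collagen genes Col1a2 and Col3a1 fell from 2284 to 9.71 and from 1934 to 14.9, while Pdgfra rose from 9.99 to 1789, Prrx1 from 136 to 2888 and Dcn from 176 to 651 (group means). The summed signal of the 12 markers ran from 12084.5 to 12780.2 in the wild-type arrays and from 19520.1 to 20517 in those labelled knockout. Of 9 leukocyte and macrophage markers (33.3% called), Cd14, Lyz2 and Cd68 were higher in the arrays labelled knockout and none was lower. The summed signals of the 9 were 179.5 to 195.9 against 552 to 589.5. Under the median of all probe sets in both groups were 5 of the 9, and Ptprc, Tyrobp, Adgre1 and Itgam had group means between 2.59 and 4.38. Csf1r lay above that median, with group means of 34.5 (wild type) and 30.3 (labelled knockout), and did not pass. Of 8 epithelial markers 5 were lower (62.5% called), with summed signals of 93.8 to 110.1 against 54.5 to 59.7. Under the median of all probe sets in both groups were 6 of the 8. None of 6 endothelial and 6 hepatocyte markers passed the test, with Pecam1 at 3.60 and Alb at 6.40 in wild type. The part that other cells may have in the results below was not tested. In bulk RNA, fewer cells of a type and less RNA per cell cannot be told apart.

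RefSeq promoter windows of the mouse assembly GRCm38.p6, from 250 bases before to 50 after a gene's start, were on hand for 9 of the 10 genes, and 11 windows in all. The windows of the gene with the largest rise (Mgst1), the largest fall (Gstt1), the mu-class gene with the largest rise (Gstm1, the second of its 2 starts) and the gene with the smallest difference (Gstp1) are shown, 5′ to 3′, with matches to any motif searched in capitals.
Mgst1, chr6:138140277-138140576, plus strand: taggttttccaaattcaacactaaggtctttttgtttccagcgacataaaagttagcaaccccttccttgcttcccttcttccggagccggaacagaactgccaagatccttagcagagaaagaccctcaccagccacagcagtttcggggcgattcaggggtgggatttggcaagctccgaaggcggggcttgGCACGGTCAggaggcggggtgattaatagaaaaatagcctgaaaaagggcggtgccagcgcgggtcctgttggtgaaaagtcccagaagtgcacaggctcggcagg
Gstt1, chr10:75797682-75797981, minus strand: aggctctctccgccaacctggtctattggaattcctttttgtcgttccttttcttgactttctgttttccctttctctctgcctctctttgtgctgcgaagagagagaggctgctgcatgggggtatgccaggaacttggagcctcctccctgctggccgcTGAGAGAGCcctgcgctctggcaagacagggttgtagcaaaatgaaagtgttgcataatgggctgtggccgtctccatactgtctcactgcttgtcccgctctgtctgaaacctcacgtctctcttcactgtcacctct
Gstm1, chr3:108017769-108018068, minus strand: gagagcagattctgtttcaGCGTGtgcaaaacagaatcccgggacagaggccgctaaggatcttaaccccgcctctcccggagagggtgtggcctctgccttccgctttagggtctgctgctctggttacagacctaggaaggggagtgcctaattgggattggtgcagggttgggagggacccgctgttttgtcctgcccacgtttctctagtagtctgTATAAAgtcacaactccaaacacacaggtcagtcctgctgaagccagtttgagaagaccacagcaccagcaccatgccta
Gstp1, chr19:4037863-4038162, minus strand: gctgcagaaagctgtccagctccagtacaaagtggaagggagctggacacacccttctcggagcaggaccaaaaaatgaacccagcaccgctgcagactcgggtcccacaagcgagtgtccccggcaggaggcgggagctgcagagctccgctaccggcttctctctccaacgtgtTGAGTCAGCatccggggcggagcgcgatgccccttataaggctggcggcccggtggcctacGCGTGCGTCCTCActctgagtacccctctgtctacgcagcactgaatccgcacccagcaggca
The motifs, searched on both strands, were the Nrf2 site cores TGACNNNGC and TGAGNNNGC, the AP-1 site TGAGTCA, the core GCGTG of the aryl hydrocarbon receptor site and the TATA box TATAAA. A Nrf2 core of either form was in the windows of 5 genes, and 27.79% of the 32851 windows searched held one. These windows, called all windows here, were of 300 bases and left out 1 chromosome, which holds none of the members. The shares are of windows and the counts are of genes, of which Gstm1 and Mgst1 had 2 windows each. Gsta3 and Mgst1, both higher in the arrays labelled knockout, held TGACNNNGC, Gstt1 and Gstp1, both lower, held TGAGNNNGC, and Gstm5, also lower, held both forms. None was in the windows of Gstm1, Gstm2 and Gsto1, all higher, or of Mgst3, which was lower. Gsta4 had no window, and sites outside the windows were not searched. The match of Mgst1 lay at position -56 from the start on the opposite strand. In Gstp1 the match at -74 overlaps an AP-1 site, and a second Nrf2 core overlaps the GCGTG match at -13 by a base. An AP-1 site was in the windows of 2 genes (Gstm5 and Gstp1) and of 5.2% of all windows, GCGTG in 4 genes and 32.39% of all windows, and TATAAA in 2 genes and 13.62%. The TATAAA match lay at -30 in the second Gstm1 window and 40 bases after the start in Gstm5. The number of CpG dinucleotides per window ran from 1 in the second Mgst1 window to 21 in that of Mgst3, with a median of 7 over all windows. These matches describe letters in a window and are not evidence of binding.

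All 10 genes passed an adjusted p under 0.05 in limma's fit over all genes, 6 of them higher and 4 lower in the arrays labelled knockout, where 59.7% of all genes tested passed (24.2% higher and 35.5% lower). The groups did not overlap for any of the 10 genes, against 64.7% of all genes. Among the 11503 genes with a mean signal at or above the median of all probe sets, as all 10 have, 80.2% passed. Nothing is read from these counts, since the same contrast was known when the family was picked. Counting only those that also changed 2-fold or more, 4 were higher (7% of all genes) and 1 was lower (8.77% of all genes). The differences spanned nearly the whole range of the arrays. Mgst1 had the 8th highest and Gstt1 the 7th lowest difference of the 18193 genes, while 46.7% of genes had a larger absolute difference than Gstp1. The median difference of the 10 genes was 0.52 and that of all genes was -0.03.

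**Figure D1:**
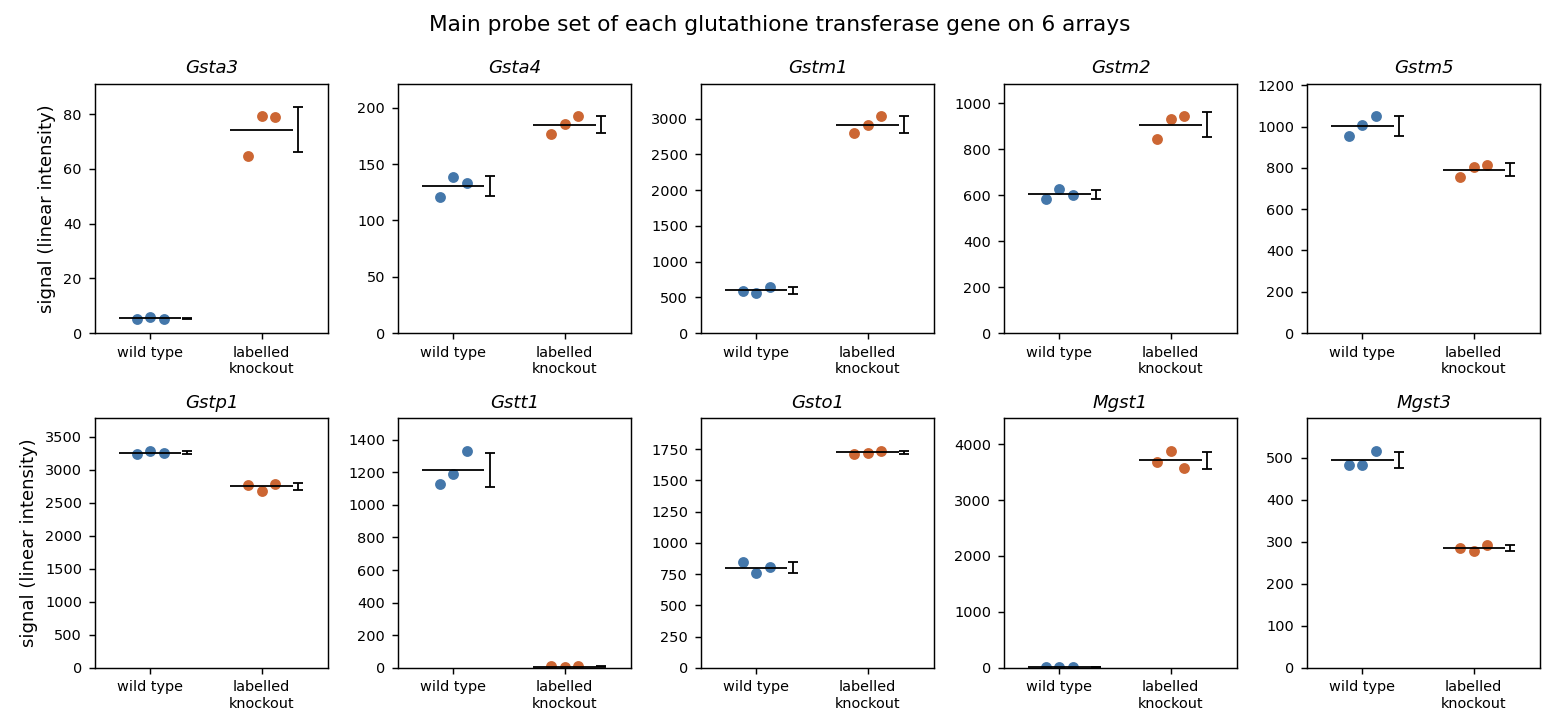
Signal (linear intensity, axes from 0) of the main probe set of each of the 10 genes on the 3 wild-type and the 3 arrays labelled knockout, where a point is an array, a line the mean of 3 arrays and a bar its SD. The groups are apart in every panel. By ratio of the group means, Mgst1 (14.8 against 3710.3) and Gstt1 (1216 against 7.80) are farthest apart and Gstp1 (3261 against 2749) is closest.

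Mgst1 encodes the microsomal glutathione transferase of the endoplasmic reticulum and outer mitochondrial membrane, which also reduces lipid hydroperoxides. Its main probe set read 11.9, 15.9 and 16.6 in the wild-type arrays and 3685, 3878 and 3568 in those labelled knockout. The wild-type arrays were at about the median of all probe sets and the other 3 were among the bright signals, with no overlap. The difference was 6.92 ± 0.06 (SE, n = 3 each; 95% interval 6.79 to 7.06) on the log2(signal + 16) scale, and 7.89 or 5.58 with 1 or 64 added to the signal in place of 16. The gene has a second probe set, which read 3.16 ± 0.332 in the wild-type arrays and 3.40 ± 0.386 in those labelled knockout (SD, n = 3 each), near the floor in both groups, with a difference of 0.02 (95% interval -0.03 to 0.06). The rise of Mgst1 therefore rests on 1 probe set, whose name ends in a. That suffix marks probe sets shared by several transcripts of a gene.

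Mgst3 encodes another MAPEG enzyme, with glutathione peroxidase activity. Its signals were 482, 483 and 516 in the wild-type arrays and 285, 278 and 292 in those labelled knockout. All 3 of the latter were below all wild-type arrays, with a difference of -0.76 ± 0.04 (SE; 95% interval -0.86 to -0.66), opposite in sign to Mgst1. The second probe set of Mgst3 was near the floor, at 7.55 ± 0.940 and 6.08 ± 0.744 (SD, n = 3 each), and differed by -0.09 (95% interval -0.18 to -0.01).

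Gstt1, of the theta class, acts on small halogenated compounds such as dichloromethane. It had a single probe set, which read 1128, 1189 and 1331 in the wild-type arrays and 8.54, 5.31 and 9.56 in those labelled knockout. The latter were all under the median of all probe sets, so that Gstt1 went from a bright signal to the floor. The difference was -5.70 ± 0.08 (SE, n = 3 each; 95% interval -5.87 to -5.52), and -7.14 or -4.15 with 1 or 64 added to the signal. No second probe set was there to compare. Genes with a mean log2 signal above 7 had a median difference of 0.23 on chromosome 10, that of Gstt1. It was -0.29 on chromosome 6, that of Mgst1, and -0.08 over all such genes. The part of a chromosome's shift in the differences was not tested.

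Gstm1 encodes an enzyme of the mu class, which has broad activity on aromatic and epoxide substrates. Its main probe set read 592, 554 and 644 in the wild-type arrays and 2806, 2914 and 3035 in those labelled knockout. These were 4.89 times the wild-type signal by group means, with a difference of 2.26 ± 0.05 (SE; 95% interval 2.15 to 2.38). The 3 other Gstm1 probe sets were higher too. The next brightest rose by 2.35 ± 0.06 (SE), from 246 ± 19.4 to 1318 ± 38.7 (SD, n = 3 each), and the dimmer pair by 1.79 and 0.81. The name of the main probe set ends in x, which marks probes that may also match other genes, and the next brightest carries no such suffix.

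Gstm2, another mu-class enzyme, read 584, 625 and 599 in the wild-type arrays and 843, 933 and 943 in those labelled knockout. All 3 of these were above all wild-type values, and the difference was 0.57 ± 0.05 (SE; 95% interval 0.47 to 0.68). Gstm5, the third mu-class gene, went the other way. It read 954, 1006 and 1051 in the wild-type arrays and 757, 804 and 813 in those labelled knockout, a difference of -0.34 ± 0.05 (SE; 95% interval -0.44 to -0.24). Mu-class genes are similar in sequence, so a probe set of one can pick up RNA of another, and how much it did so was not tested.

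Gsta3, an alpha-class enzyme known in mice for detoxifying the epoxide of aflatoxin, had signals of 5.25, 5.71 and 5.27 in the wild-type arrays and 64.7, 79.2 and 78.8 in those labelled knockout. The wild-type arrays were near the floor and the others of moderate signal, with a difference of 2.07 ± 0.08 (SE; 95% interval 1.90 to 2.24). With 1 or 64 added to the signal it was 3.55 or 0.99. The second Gsta3 probe set also rose, from a mean of 5.86 to 16.5 (n = 3 each), by 0.57 ± 0.06 (SE). Gsta4, the alpha-class enzyme that conjugates 4-hydroxynonenal, a product of lipid peroxidation, read 121, 138 and 134 in the wild-type arrays and 177, 186 and 193 in those labelled knockout. The groups did not overlap and the difference was 0.46 ± 0.06 (SE; 95% interval 0.32 to 0.59).

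Gsto1, of the omega class, has a cysteine in its active site and reduces dehydroascorbate. It read 846, 757 and 803 in the wild-type arrays and 1711, 1722 and 1735 in those labelled knockout, 2.15 times the wild-type signal by group means. The difference was 1.09 ± 0.04 (SE; 95% interval 0.99 to 1.19), and its second probe set rose by 0.82 ± 0.07 (SE), from 183 ± 15.8 to 336 ± 31.6 (SD, n = 3 each). Gstp1, the pi-class enzyme that also binds the kinase JNK, was the gene with the smallest difference. It read 3247, 3288 and 3249 in the wild-type arrays and 2770.0, 2686 and 2791 in those labelled knockout. The groups did not overlap, and the difference was -0.25 ± 0.04 (SE; 95% interval -0.33 to -0.17). Gstp1 has a near-identical neighbour, Gstp2, whose RNA this probe set may also bind, and the 2 were not told apart here.

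**Figure D2:**
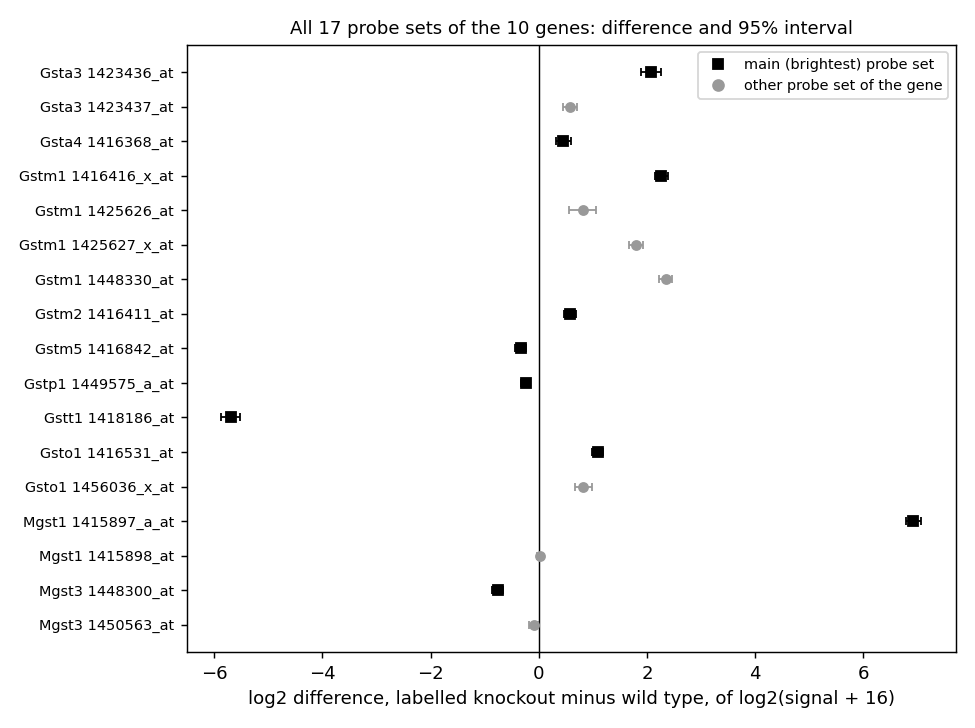
Log2 difference (labelled knockout minus wild type, of log2(signal + 16)) of all 17 probe sets of the 10 genes, with 95% intervals from the fit over all probe sets, squares for the main and circles for other probe sets. All 7 other probe sets lie on the same side of 0 as the main one of their gene, and those of Mgst1 (0.02) and Mgst3 (-0.09) lie next to 0.

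Over all probe sets of the 10 genes, 11 of 17 were higher and 4 were lower at an adjusted p under 0.05 (limma over 45037 probe sets, of which 52.2% passed, 24.9% higher and 27.2% lower), and the groups did not overlap for 15, against 58.5% of all probe sets. For 5 genes there was a single probe set. For the others, all 7 further probe sets went in the direction of the main one, 5 of them past the threshold, and the pair that did not pass, of Mgst1 and Mgst3, was under the median of all probe sets in both groups.

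The signs of Gstp1 and Gstm5 depended on how the arrays were brought to a common scale. The mean log2 signal of poly-A spike controls, RNA added before labelling, was 6.81 ± 0.11 in the wild-type arrays and 6.33 ± 0.08 in those labelled knockout (SD, n = 3 each), and that of hybridization controls was 10.30 ± 0.07 and 10.56 ± 0.08. With the arrays scaled on the poly-A controls, Gstp1 was at 0.23 and Gstm5 at 0.13, neither past the threshold. Mgst3 was at -0.31 and Gstm2 at 1.04 with this scaling. With the hybridization controls, Gstp1 was at -0.51, Gstm5 at -0.59, Gstm2 at 0.32 and Gsta4 at 0.22. Mgst1, Gstt1, Gstm1, Gsta3, Gsto1, Gstm2, Gsta4 and Mgst3 kept their direction under quantile, median, poly-A and hybridization scaling. Of all genes called, 40.6% were higher as deposited, against 32.1% with arrays centred on the median, 76.4% with the poly-A and 22.1% with the hybridization controls. The median of all genes was -0.03 as deposited and 0.11 with the poly-A controls, while Gstm5 went from -0.34 to 0.13. Of the 18193 genes, 6365 were under the median of all probe sets in both groups, where the offset of 16 damps such a shift. The median of all genes is therefore no yardstick for a bright gene such as Gstm5. A median of bright genes with this scaling is not given here.

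**Figure D3:**
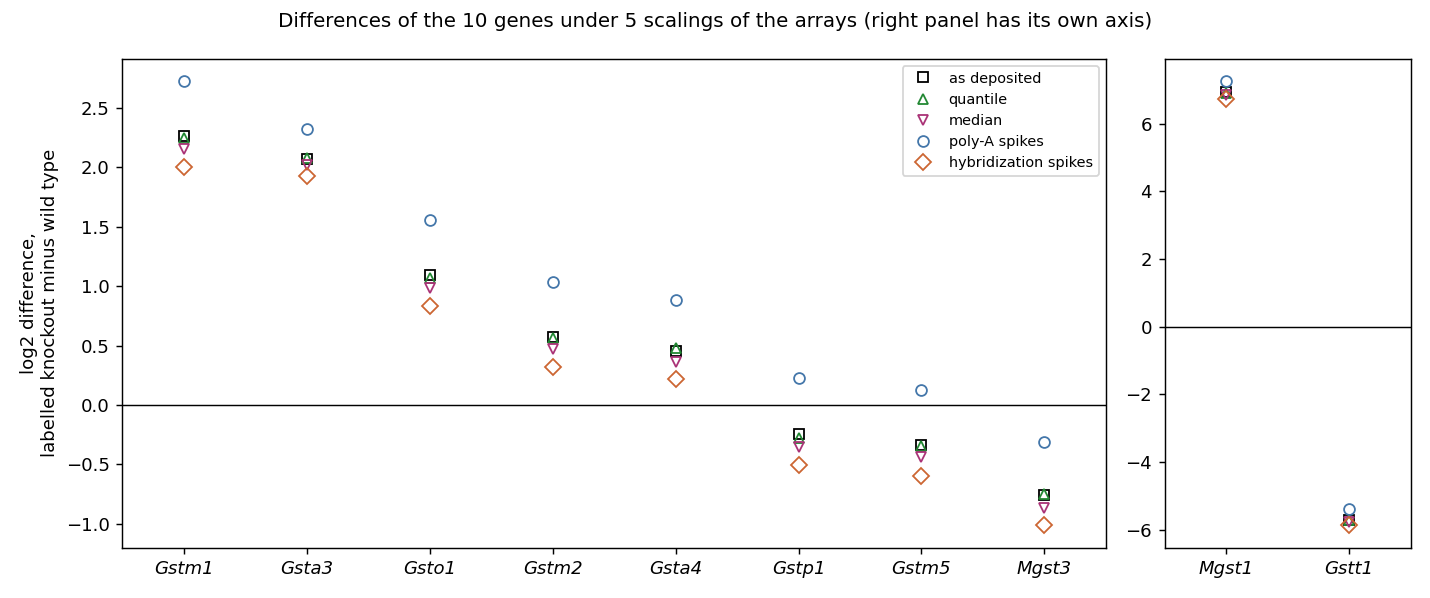
Log2 difference (labelled knockout minus wild type) of the 10 genes under 5 scalings of the arrays, with a separate vertical axis for Mgst1 and Gstt1 on the right. Gstp1 (0.23) and Gstm5 (0.13) lie above 0 with poly-A spike controls and below it with the other 4 scalings, and the other 8 genes lie on one side of 0 throughout.

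The remaining transferase and MAPEG genes were compared with these 10. Of 20 listed, 18 were measured, of which 3 rose, 9 fell and 6 did not pass, 66.7% called against 59.7% of all genes, and their median was -0.12. Mgst2, a microsomal transferase that can also make leukotriene C4, rose from 53.0 ± 5.55 to 539 ± 14.0 (SD, n = 3 each), by 3.01 (limma adjusted p = 9.16e-13), and Ptges, the inducible prostaglandin E synthase of the MAPEG family, rose from 25.6 ± 7.55 to 216 ± 16.2, by 2.49. Both of its further probe sets rose too, by 2.21 and 1.93. Gstm6 was at 0.33 with overlapping groups, and its call was lost without wild-type array 1 (0.23, limma adjusted p = 0.0955), knockout array 2 (0.25, 0.0797) or knockout array 3 (0.32, 0.0528), and with hybridization spike scaling (0.16, 0.179). Alox5ap, the MAPEG protein that presents arachidonic acid to 5-lipoxygenase, went from 68.3 ± 4.27 to 18.2 ± 4.83 (-1.31), Gstm4 from 54.4 ± 3.95 to 10.1 ± 0.759 (-1.43), and Gstz1, the maleylacetoacetate isomerase of tyrosine breakdown, from 147 ± 3.86 to 67.3 ± 4.26 (-0.97). Gstcd (-0.65), Gstk1 (-0.62), Gsto2 (-0.46), Gstm7 (-0.39), Gstp3 (-0.18) and Gstt4 (-0.06) fell as well. Of these, Gstk1 (13.7 to 3.34), Gstp3 (7.78 to 4.91) and Gstt4 (3.34 to 2.52) were under the median of all probe sets in both groups. Gsto2 (24.4 to 13.5) was under it in the arrays labelled knockout. With poly-A spike scaling the calls of Gstm7 (-0.0063, limma adjusted p = 0.961) and Gstp3 (-0.049, 0.287) were lost. That of Gstt4 was lost without wild-type array 3 (-0.04, limma adjusted p = 0.164), knockout array 2 (-0.06, 0.105) or knockout array 3 (-0.06, 0.105), and under several other settings. Gsta2, Gstm3, Gstt2, Gstt3, Hpgds and Ltc4s did not pass.

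**Figure D4:**
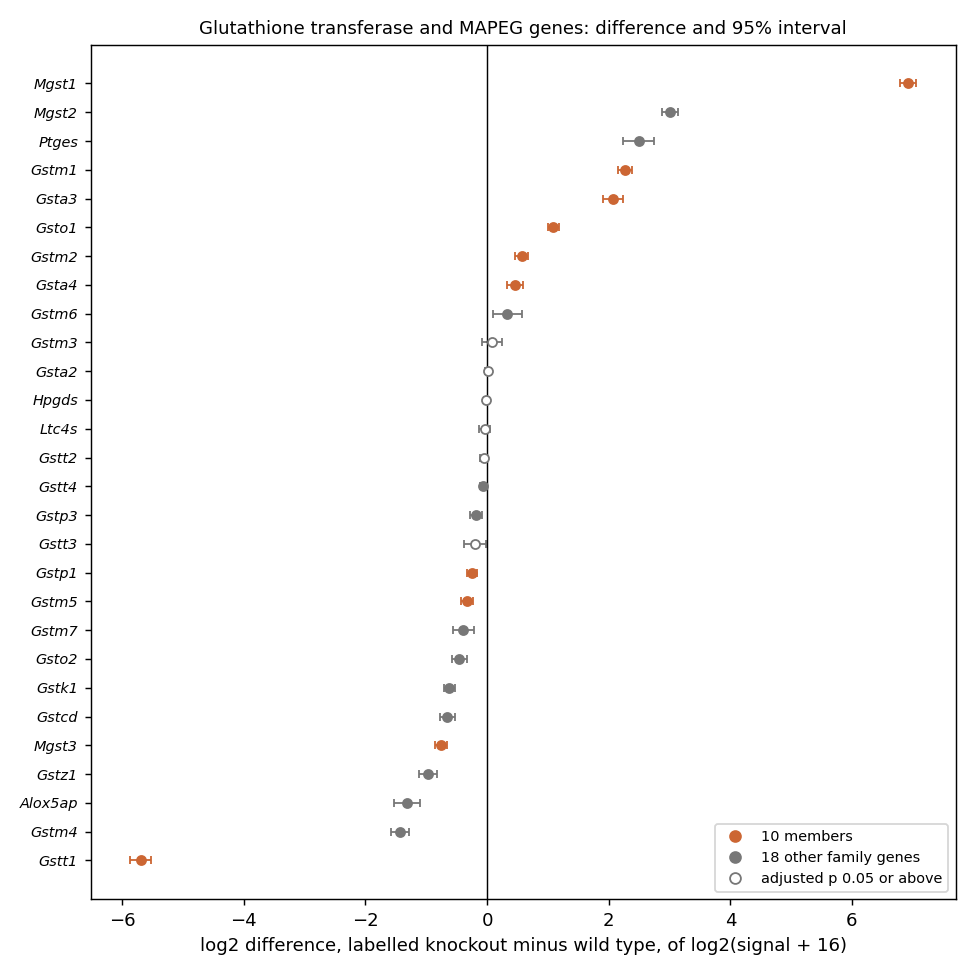
Log2 difference (labelled knockout minus wild type, of log2(signal + 16)) with 95% intervals for the 10 genes (orange) and 18 other glutathione transferase and MAPEG genes (grey), open where the adjusted p was 0.05 or above. Mgst1 (6.92) and Gstt1 (-5.70) lie apart at the ends, and the other genes lie between -1.43 (Gstm4) and 3.01 (Mgst2).

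The mu-class genes lie in 1 cluster on chromosome 3, and its genes did not share a direction. In the RefSeq order, Gstm5 (-0.34) was followed by Gstm7 (-0.39), Gstm6 (0.33), Gstm3 (0.08, not past the threshold), Gstm2 (0.57), Gstm1 (2.26) and Gstm4 (-1.43). Gstm1 and Gstm4, side by side, thus differed in sign. On chromosome 10, Gstt1 (-5.70) lay between Gstt3, at 34.8 ± 4.06 and 28.3 ± 3.11 (SD, n = 3 each; -0.20, limma adjusted p = 0.0619), and Gstt4, near the floor in both groups. On chromosome 19, Gsto1 (1.09) was followed by Gsto2 (-0.46), which went the other way.

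Genes that make, recycle or use glutathione itself went in both directions. Of 32 listed, 29 were measured, and 10 rose, 13 fell and 6 did not pass (79.3% called, against 59.7% of all genes), with a median of -0.08. Of the 29, 4 were under the median of all probe sets in both groups. Among genes with a mean signal at or above that median, 80.2% were called. Gclc, the catalytic subunit of the ligase that limits glutathione synthesis, rose from 202 ± 15.3 to 889 ± 23.7 (SD, n = 3 each), by 2.05, and its other probe set by 2.02. Chac1, which breaks glutathione down, fell from 953 ± 109 to 142 ± 15.9 (-2.61). The glutaredoxin Glrx, which removes glutathione from protein thiols, rose from 157 ± 15.0 to 1502 ± 26.0 (3.13). Hagh, the glyoxalase that hydrolyses lactoylglutathione, fell from 1138 ± 37.4 to 313 ± 29.3 (-1.81). The NADPH-forming dehydrogenase Idh1 rose by 1.58 and Dpep1, a dipeptidase that cleaves cysteinylglycine, by 1.47. Outside the rule for naming genes, and picked after their values were seen, Gsr, the glutathione reductase, went from 323 ± 11.5 to 153 ± 5.69 and Gclm, the modifier subunit of the ligase, was at 0.18 (-0.07 with hybridization spike scaling). A dimmer Gclm probe set rose from 70.2 ± 4.51 to 122 ± 15.1, by 0.68.

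Of 8 transporters listed that export glutathione conjugates, 7 were measured, 1 rose (Abcc10, 0.51) and 3 fell (Abcc3, -0.66; Abcc5, -0.30; Abcc1, -0.14), 57.1% called against 59.7% of all genes. The probe sets of Abcc5 disagreed, and without those ending in x, s or a it was at 0.61 (limma adjusted p = 3.9e-05). The call of Abcc1 was lost without wild-type array 2 (-0.13, limma adjusted p = 0.0837), wild-type array 3 (-0.11, 0.1001), knockout array 2 (-0.15, 0.0577) or knockout array 3 (-0.12, 0.0946), and it was at 0.31 with poly-A spike scaling (0.00152).

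Of 20 Nrf2 regulators and other Nrf2 targets listed, 17 were measured, and 11 rose, 4 fell and 2 did not pass (88.2% called, against 59.7% of all genes), with a median of 0.74. Only 1 of the 17 was under the median of all probe sets in both groups. Among genes with a mean signal at or above that median, 80.2% were called. Ephx1, the epoxide hydrolase, rose by 2.21, from 545 ± 30.4 to 2584 ± 69.4 (SD, n = 3 each), the carbonyl reductase Cbr3 by 2.21, the haem oxygenase Hmox1 by 1.58, the thioredoxin reductase Txnrd1 by 1.57 and Maff, a partner of Nrf2 on DNA, by 1.45. Cbr1, the other carbonyl reductase, fell from 305 ± 26.5 to 12.5 ± 4.36 (-3.50). Of genes picked after their values were seen, Nqo1, a quinone reductase often used to read Nrf2 activity, was dim and at -0.51 (13.6 ± 1.81 to 4.73 ± 0.545), Nfe2l2, the gene of Nrf2, was at 0.74 with a dimmer probe set at -0.48 (0.13 with the probe sets averaged, limma adjusted p = 0.0581), and Keap1, its inhibitor, at 0.00017 (limma adjusted p = 0.998). Keap1 followed the scaling, at 0.44 with the poly-A (limma adjusted p = 3.48e-05) and -0.25 with the hybridization controls (0.00465).

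**Figure D5:**
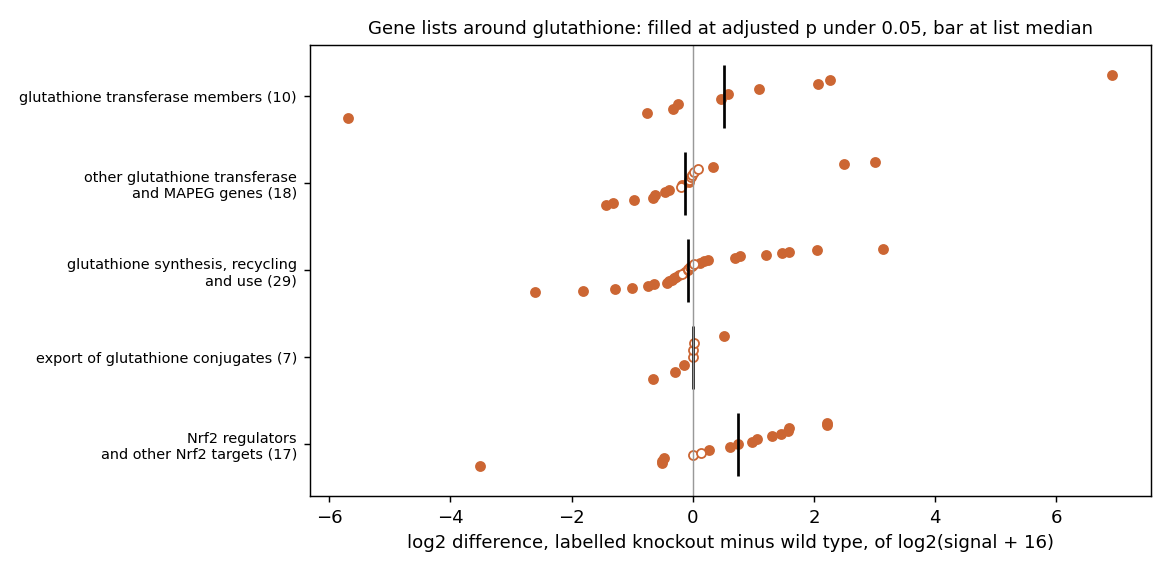
Log2 difference (labelled knockout minus wild type, of log2(signal + 16)) of each measured gene of 5 lists, drawn in a row for each list, with filled points for genes past the threshold of 0.05 and a bar for the median. Medians are 0.52 for the 10 genes, -0.12 for the other transferase and MAPEG genes, -0.08 for glutathione synthesis, recycling and use, -0.003 for export and 0.74 for the Nrf2 list, and every list has genes on both sides of 0.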

How the data were processed

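Gene expression was measured on 6 Affymetrix arrays, from 6 µg of total RNA each per the labels. The deposited values are intensities of probe sets on a linear scale; the submitters' processing notes name MAS5, with version and scaling not given in the sources used here. Array medians were 13.4 to 14.7. Of 45101 probe sets, 64 were controls, 34945 had 1 gene symbol, 932 several and 9160 were unnamed here; 34741 were matched by Entrez number to RefSeq names (GRCm38.p6).

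Signals were transformed as log2(signal + 16). The probe set with the highest mean log2 value over the 6 arrays represented each of 18193 genes. Knockout minus wild type was fitted in R 4.3.3 by the lmFit and eBayes functions of limma 3.58.1, with an intensity trend. Tests were two-sided and p-values were adjusted by Benjamini-Hochberg across the genes, or across all 45037 probe sets that were not controls for single probe sets, with calls made at 0.05. The fit was checked on simulated data. Members and lists were chosen with earlier results of these data known. Named genes were all members and measured family genes, up to 6 called genes with the largest differences per other list, and the 3 nearest profiles. Alternatives were other offsets, scalings, filters, probe set rules and variance models, a replicate block, chromosome centring and leaving out each array. No exact test was run. Figures were drawn with matplotlib 3.10.9.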

Additional observations from a re-analysis of the deposited data

How the results depend on the processing

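Under 20 alternatives each, Gsta3, Gsta4, Gstm1, Gstm2, Gsto1, Gstt1 and Mgst3 kept their direction. Mgst1 was at 0.02 with suffixed probe sets (x, s or a) left out, a setting that leaves only its dim probe set and none for Gstp1, and at 3.47 with probe sets averaged. With arrays scaled on poly-A spike controls, Gstm5 was at 0.13, Gstp1 at 0.23, Gstt4 at 0.011, Abcc5 at 0.12 and Abcc1 at 0.31, each opposite to its sign as deposited. Of these, only Abcc1 passed the threshold with that scaling. There, 2 of the 10 genes were lower instead of 4, as were 2 of their probe sets, 6 other family genes were higher instead of 3, 5 glutathione genes were lower instead of 13, 5 transporters were higher and 1 lower instead of 1 and 3, and 2 Nrf2 genes were lower instead of 4. Keap1 was at 0.44 there and at -0.25 with hybridization spike controls, which put Gclm at -0.073. With suffixed probe sets left out, 7 member probe sets instead of 11 were higher, since fewer were tested, 2 transporters were higher and Abcc5 was at 0.61. With chromosomes centred, 3 transporters were higher, Abcc5 was at 0.20 and Abcc1 at 0.35. Apart from the constructions named, the cause was not tested.

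With the replicate block, 6 of the 10 genes were higher and 4 lower, as without it, and Mgst1 was at 6.92 and Gstt1 at -5.70; the block changed no call of the named genes. Deviations from the group means correlated by 0.03, 0.13 and 0.19 between arrays of the same number. Within a group these deviations cancel out, so the correlations are tied together and cannot decide whether the arrays are pairs. In these deviations, though not in the signals themselves, every array correlated best with that of its own number in the other group. For number 1 this was by 0.0327 against 0.02998. It is a hint from the data and not the design. Leaving out each array in turn, Mgst1 ran from 6.85 to 6.96 and Gstt1 from -5.75 to -5.62, with 6 of the 10 genes higher and 4 lower each time. Among other named genes, Gstm6 (0.23 to 0.32), Gstt4 (-0.06 to -0.04) and Abcc1 (-0.15 to -0.11) each lost their call in 3 or 4 of these settings, with the values given here. The offset matters most for genes near the floor in a group (Mgst1, Gstt1, Gsta3), and no detection call was used.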

Other observations

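The genes whose values over the 6 arrays lay nearest to those of Mgst1, each centred on its own mean, were Aldh1a7 (root mean square difference 0.09 on the log2 scale), Gpr176 (0.10) and Fmo2 (0.17). Aldh1a7, an aldehyde dehydrogenase, had signals of 3.53 ± 0.876 in the wild-type arrays and 2248 ± 142 in those labelled knockout (SD, n = 3 each), and Gpr176, an orphan receptor, 9.21 ± 1.16 and 3098 ± 113. Those nearest to Gstt1 were the prostacyclin synthase Ptgis (0.13), the cathepsin Ctsz (0.16) and the galectin Lgals3 (0.17), of which Ptgis went from 1317 ± 85.6 to 12.9 ± 2.84. These profiles compare 2 groups of 3 arrays and share their scaling.

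Among measured genes next to the 10 on their chromosomes, Tmem14a, beside Gsta3, rose from 13.0 ± 1.21 to 78.6 ± 3.32 (SD, n = 3 each; 1.71). Aldh9a1, beside Mgst3, went from 658 ± 20.2 to 449 ± 13.6 (-0.54), and Ndufv1, beside Gstp1, from 1219 ± 19.0 to 829 ± 25.9 (-0.55). Both neighbours of Mgst1, Slc15a5 and Lmo3, were near the floor in all arrays, with means from 2.11 to 4.87. They did not pass, and neither did the remaining neighbours outside the transferase family. These were Khdc1a (-0.01) beside Gsta3, and C920006O11Rik (0.06) and Omt2a (0.004) beside Gsta4. The others were 4933431E20Rik (-0.07) beside Gstm5, Cfap43 (0.009) beside Gsto1 and Lrrc52 (-0.02) beside Mgst3. The probe set that the annotation gives to Gsta1 and Gsta2 together was at 2.73 ± 0.0645 and 2.78 ± 0.213.

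For the beta-actin control, signal at the 3' end over that at the 5' end had a log2 ratio of 0.47 ± 0.03 in the wild-type arrays and 0.36 ± 0.01 in those labelled knockout (SD, n = 3 each), and that of the Gapdh control -0.15 ± 0.04 and -0.17 ± 0.04. The part of this shift in the results was not tested.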
